A study of Rattus norvegicus with 6 samples.

Results

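The synaptotagmins are membrane proteins of secretory vesicles, and 79 accessible chromatin sites (ACS) of rat pancreatic islets had a synaptotagmin gene as their nearest gene. They were chosen by the gene symbol that the ACS table gives, taking *Syt1*, *Syt4*, *Syt5*, *Syt7*, *Syt9*, *Syt10*, *Syt11*, *Syt13*, *Syt14* and *Syt17*, out of 101603 distinct ACS in all. *Syt4* had 7 of them and 8 paralogues had the other 72, while *Syt14* was not analysed here. Accessibility was measured by ATAC-seq, in which the Tn5 transposase integrates adapters into open DNA, and the values are counts of integrations per ACS and library. The question was whether chromatin near *Syt4* changed between suckling and mature islets and whether its paralogues changed in the same way. The Adult group held islet cells of 3 male Sprague-Dawley rats, 1 library each, and the P10 group held islet cells pooled from pups of both sexes in 3 litters at 10 days of age, again with 1 library each. None of the animals was treated or carried an altered gene. Age, sex and pooling differ together between the groups and cannot be told apart. The cells were whole dissociated islets that were not sorted, so a change within a cell type and a change in how many of its cells were present cannot be told apart either.

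Synaptotagmins carry 2 cytoplasmic C2 domains, and in many members these bind calcium and phospholipid and so couple a rise in calcium to the fusion of vesicles with the plasma membrane. In neurons *Syt1* is the sensor of fast transmitter release. In islets *Syt7*, a sensor of high calcium affinity, takes part in the release of insulin and glucagon granules. *Syt4* and its closest paralogue *Syt11* have a first C2 domain that does not bind calcium in the usual way, and *Syt4* is known as a gene whose expression rises in maturing β-cells, where it lowers the sensitivity of granule release to calcium. *Syt13* and *Syt17* are members without calcium-dependent phospholipid binding, and *Syt10* is a calcium sensor known from the olfactory bulb. *Syt5* and *Syt9* are sensors of dense-core vesicles whose numbers have been exchanged in parts of the rat literature: the RefSeq gene table lists the older name SytIX for *Syt5* and Sytv for *Syt9*. The gene identifiers of the table were followed here, 54309 for *Syt5* and 60564 for *Syt9*.

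The sequence of the *Syt4* ACS with the largest change among the 7, upstream of the gene start, is shown first because the study cloned this site into a luciferase reporter. It lies at chr18:23903464-23903769 of Rn5, and the 300 bases printed are chr18:23903467-23903766, 3 bases being left off at each end, as the study lists them, with no strand given. The *Syt4* and *Syt11* promoters follow, as the closest pair of paralogues. They run from 250 bases before to 50 bases after the gene start, from RefSeq on GRCr8, at chr18:23320814-23321113 and chr2:176529726-176530025, both on the minus strand. Capitals mark matches to the motifs named below.
Syt4 upstream site: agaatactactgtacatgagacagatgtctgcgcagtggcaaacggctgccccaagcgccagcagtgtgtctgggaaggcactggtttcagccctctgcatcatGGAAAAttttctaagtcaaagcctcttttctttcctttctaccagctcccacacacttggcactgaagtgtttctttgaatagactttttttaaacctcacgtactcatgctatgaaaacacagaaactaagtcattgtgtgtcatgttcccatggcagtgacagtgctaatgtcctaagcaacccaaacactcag
Syt4 promoter: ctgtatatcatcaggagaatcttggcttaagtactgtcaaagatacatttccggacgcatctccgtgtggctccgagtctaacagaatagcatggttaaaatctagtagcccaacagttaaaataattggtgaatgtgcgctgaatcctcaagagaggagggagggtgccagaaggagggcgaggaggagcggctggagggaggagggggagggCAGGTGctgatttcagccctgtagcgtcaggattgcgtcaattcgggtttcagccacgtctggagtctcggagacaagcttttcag
Syt11 promoter: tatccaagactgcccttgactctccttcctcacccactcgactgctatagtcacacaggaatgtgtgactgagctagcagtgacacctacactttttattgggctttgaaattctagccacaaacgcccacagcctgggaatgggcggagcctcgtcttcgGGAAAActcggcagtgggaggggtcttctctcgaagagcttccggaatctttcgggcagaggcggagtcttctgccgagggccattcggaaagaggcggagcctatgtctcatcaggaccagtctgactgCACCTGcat

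In all, 7 motifs were searched on both strands, namely GGAAAA of NFAT, TGTTTAC of forkhead factors, the letters GTTGCC of RFX factors, the letters TTCAGCACC of the repressor REST, the E-box CAGGTG that SCRT1 and related factors bind, the cyclic AMP element TGACGTCA and the AP-1 site TGANTCA. The *Syt4* upstream site held 1 match to GGAAAA and no match to the other 6. Only these exact letters were counted, so weaker matches to the same factors would be missed. The study instead scanned ACS with position weight matrices, and it proposes *Syt4* as a possible target of NFAT, FOX and RFX factors. Among 27457 rat promoters of the same length, 24.3% held GGAAAA, so a match of this kind is common. The *Syt4* promoter held 1 match to CAGGTG, found in 18.7% of promoters, and the *Syt11* promoter held 1 match to CAGGTG and 1 to GGAAAA. GC content was 45.3% in the *Syt4* upstream site, 51.3% in its promoter and 54.7% in that of *Syt11*, around the promoter median of 52.3%. The promoter table also held *Syt1* and *Syt9*, at 64.3% and 79.7% GC with 8 and 45 CpG dinucleotides. In these, the only match was 1 GTTGCC at *Syt1*, and 12.2% of promoters hold those letters.

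The libraries held 7916919 to 11903909 integrations in ACS for adults and 13491534 to 21168463 for P10, and the TMM factors, which scale libraries by a trimmed mean of log ratios, ran from 0.93 to 1.04. Values below are integrations per 1000000 in ACS (CPM), with TMM scaling. The 6 pairs of replicates were not repeats of each other, since chi-square over its degrees of freedom was 3.35 to 7.81 where counting noise alone gives about 1. On log2 values over all ACS, pairs of different age correlated at 0.892 to 0.917, the highest being P10 library 1 with Adult library 4, against 0.921 to 0.929 among adults and 0.942 to 0.956 among P10 libraries. Of 14 islet endocrine marker genes, 11 had ACS, including insulin, glucagon and *Pdx1*, and their summed CPM were 1360 to 1680 in adults and 1420 to 1750 in P10 libraries. Summed CPM at marker genes of other cells was higher in every adult library than in every P10 library for endothelial (407 to 483 against 364 to 387), duct (265 to 292 against 244 to 259), leukocyte (58.6 to 71.2 against 48.0 to 56.8) and mesenchymal genes (381 to 432 against 360 to 378). It overlapped between the ages for acinar (411 to 468 against 389 to 419), neuronal and glial (367 to 430 against 395 to 445) and proliferation genes (212 to 241 against 226 to 249). Few single genes behind these sums passed the gene-level limits used below. Among islet endocrine genes 1 rose and 3 fell, among duct genes 1 rose and 1 fell, and 2 endothelial genes rose. In the leukocyte list 1 gene rose, and that sum rested on 4 of 6 genes and 8 ACS. No mesenchymal gene passed. The part of these cells in the results below was not tested.

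Chromatin near *Syt4* was more accessible in adult islets at 4 of its 7 ACS and less accessible at none. Its 8 paralogues were split, with 9 ACS more accessible in adults (Up), 9 less accessible (Down) and 54 that did not pass. The paralogues' Up sites lay near *Syt1*, *Syt7* and *Syt13*, and their Down sites near *Syt7*, *Syt9*, *Syt10* and *Syt17*. *Syt5* and *Syt11* had no site that passed. An ACS was called with edgeR's quasi-likelihood test at a p-value under 0.05 and a Benjamini-Hochberg adjusted p (FDR) under 0.2 over all ACS, and log2 fold changes are Adult over P10, each with the standard error (SE) that its F statistic implies. With no Down site at *Syt4* and none passing at *Syt5* and *Syt11*, the counts at an unadjusted p under 0.05 were 0 as well, by edgeR, DESeq2 and limma voom alike. In all, 13 of the 79 ACS were Up and 9 Down, that is 16.5% and 11.4%, where 12.3% and 6.63% of all ACS were. Of the 72 paralogue ACS, 12.5% were Up and 12.5% Down, so their Up share was near that of all ACS. With column sums as library sizes, 49.3% of all calls were Up in place of 65.0%, and members had 12 Up and 11 Down. Without P10 library 2, 4 member sites were Down in place of 9, and Down calls over all ACS went from 6738 to 3285. Of the 9, 3 passed an FDR of 0.05.

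**Figure D1:**
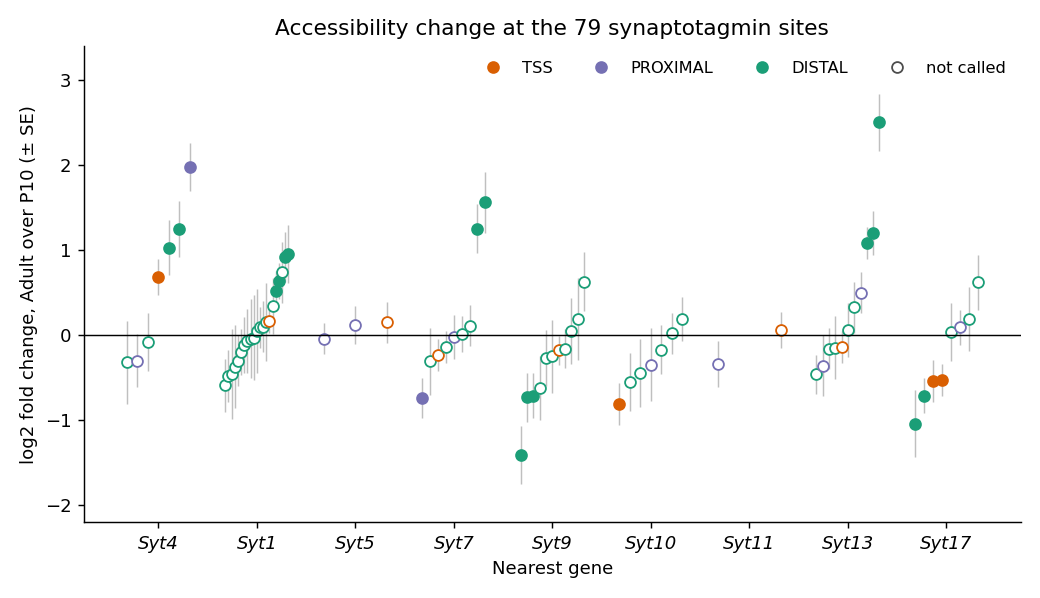
Log2 fold change (Adult over P10, vertical axis) of each of the 79 ACS by nearest gene (horizontal axis), coloured by class, with bars for SE and filled points for called sites. The 4 called *Syt4* sites lie above 0 at 0.68 to 1.98, while called paralogue sites run from -1.41 near *Syt9* to 2.50 within *Syt13*.

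The ACS 1036 bp upstream of *Syt4*, the site cloned into the reporter, held 10.8, 7.30 and 8.89 CPM in adults and 2.14, 2.14 and 2.54 CPM at P10. All adult libraries lay above all P10 libraries, and the site rose by 1.98 on the log2 scale (SE 0.28, 3.96-fold, adjusted p = 3.13e-05). Raw counts behind these values were 120, 75 and 69 in adults and 46, 30 and 48 at P10. The study took this site from the same libraries, and *Syt4* was chosen here with earlier results of these data known. The adjusted p is therefore not independent of that choice. Nearest to this site, the ACS over the transcription start site (TSS), chr18:23902063-23902669, held 24.2, 18.4 and 22.3 CPM in adults and 14.1, 10.3 and 16.0 CPM at P10. It held the most integrations of the 7 sites in each library, and its groups did not overlap. It rose by 0.68 (SE 0.21, adjusted p = 0.0388), a call that was lost without P10 library 2 (0.51, adjusted p = 0.28).

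Both other called sites of *Syt4* were distal. The ACS 27231 bp upstream, chr18:23929659-23929994, held 4.61, 3.51 and 5.16 CPM in adults and 1.91, 1.36 and 2.22 CPM at P10, again without overlap. It rose by 1.25 (SE 0.33, adjusted p = 0.0156). At the downstream ACS, 56443 bp from the gene start at chr18:23845985-23846340, adults held 9.13, 4.48 and 5.03 CPM and P10 libraries 2.46, 3.92 and 2.85. The groups stood apart, but Adult library 4 was much higher than the other two. The site rose by 1.03 (SE 0.32, adjusted p = 0.0364), and without that library the value was 0.63 (adjusted p = 0.329).

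The other 3 *Syt4* sites did not pass the test and their groups overlapped. Within the gene, 5796 bp from its start at chr18:23896632-23897084, the ACS held 2.80, 3.70 and 4.77 CPM in adults and 3.58, 5.14 and 5.07 CPM at P10, with a log2 fold change of -0.30 (SE 0.31, adjusted p = 0.646). The ACS 78110 bp upstream held 3.34, 2.53 and 2.19 CPM in adults and 2.32, 3.28 and 3.07 CPM at P10 (-0.08, SE 0.34, adjusted p = 0.932). The lowest site, 44592 bp upstream, held 0.271, 1.17 and 1.29 CPM in adults and 0.976, 0.927 and 1.37 CPM at P10 (-0.32, SE 0.49, adjusted p = 0.789). Its raw counts were between 3 and 26, so a change there was not detectable at this depth unless it was large. Upstream of the gene, both nearer sites rose and both farther sites did not pass.

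**Figure D2:**
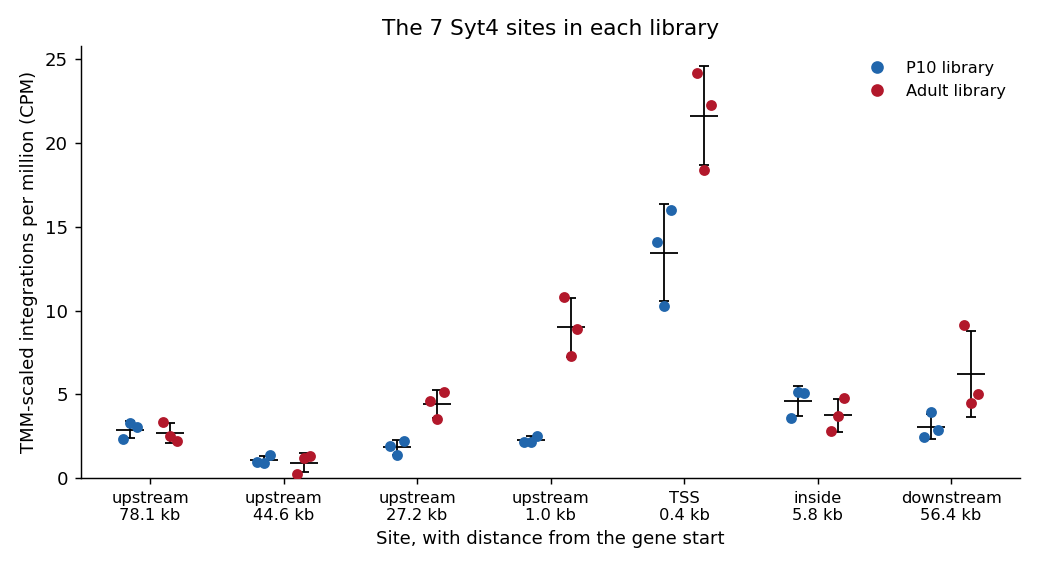
TMM-scaled CPM (vertical axis) at each *Syt4* ACS in each library, ordered along the gene with the distance from its start (horizontal axis), where points are libraries, lines with caps are means ± SD (n = 3). Adult points lie above all P10 points at the TSS, at 1036 and 27231 bp upstream and at 56443 bp downstream.

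Integrations summed over all sites of a gene gave 1 value per gene. *Syt4* summed to 55.2, 41.1 and 49.6 CPM in adults and 27.5, 27.1 and 33.1 CPM at P10, with all adults above. The sum rose by 0.72 (SE 0.14, adjusted p = 0.00703 over 13834 genes) and stayed called whichever of the 6 libraries was left out (0.63 to 0.85). *Syt13* summed to 155, 130 and 109 CPM in adults and 120, 93.8 and 85.3 CPM at P10. Adult library 6 lay below P10 library 1, and the sum rose by 0.39 (SE 0.13, adjusted p = 0.0755). For *Syt17* the sums were 60.5, 61.0 and 59.8 CPM in adults and 76.2, 76.4 and 77.4 CPM at P10. These were the most even replicates of the family, and the sum fell by 0.35 (SE 0.11, adjusted p = 0.077). *Syt9* summed to 74.6, 73.6 and 61.6 CPM in adults and 83.0, 89.4 and 84.7 CPM at P10, without overlap, and fell by 0.30 (SE 0.11, adjusted p = 0.133).

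The sums of the other 5 genes did not pass. *Syt1* stood at 0.19 (SE 0.12, adjusted p = 0.385), *Syt10* at -0.23 (SE 0.16, adjusted p = 0.408) and *Syt11* at -0.12 (SE 0.16, adjusted p = 0.684). *Syt5* at 0.03 (SE 0.12) and *Syt7* at -0.01 (SE 0.12) were closest to 0, and in both the highest adult library was Adult library 4 and the highest P10 library was P10 library 1. The sums of *Syt11* (27.3 and 25.7 CPM) and *Syt13* (155 and 120 CPM) were also highest of their age in these libraries. So were the marker sums of islet endocrine (1680 and 1750 CPM), acinar (468 and 419), endothelial (483 and 387) and neuronal and glial genes (430 and 445). For duct, leukocyte, mesenchymal and proliferation genes, these libraries were not both the highest. A link between the marker sums and the gene sums was not tested. Thus 2 of 9 gene sums were Up and 2 Down, where 10.5% and 7.69% of all genes were. Of the 4 called sums, that of *Syt4* alone passed an FDR of 0.05. The calls of *Syt13* and *Syt17* were each lost without Adult library 4 (adjusted p = 0.289 and 0.278) and without P10 library 2 (0.319 and 0.281). *Syt13* also lost its call without P10 library 3 (0.203) and with cyclic loess scaling (0.242). The call of *Syt9* was lost without Adult library 4 or 6 and without P10 library 2 or 3 (adjusted p = 0.294, 0.333, 0.428 and 0.228).

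**Figure D3:**
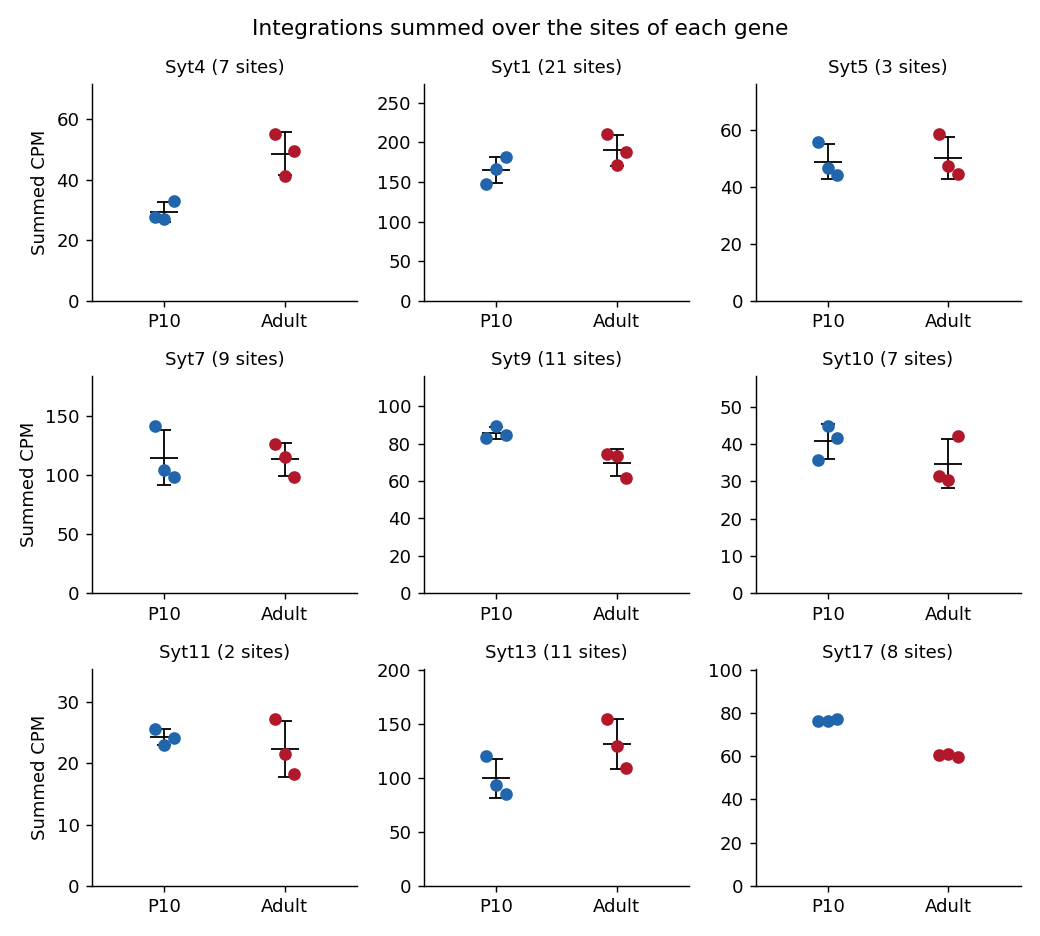
Summed CPM over all ACS of each gene (vertical axes, each from 0) in the P10 and Adult libraries (horizontal axes), where points are libraries, lines with caps are means ± SD (n = 3). The ages do not overlap for *Syt4* (higher in adults) and for *Syt9* and *Syt17* (lower in adults).

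A direct comparison within each library needs no scaling between libraries. Of all integrations at the 79 sites, *Syt4* sites took 6.90% in Adult library 4 (95% Wilson interval 6.39 to 7.45), 5.94% in Adult library 5 (5.41 to 6.51) and 7.39% in Adult library 6 (6.71 to 8.13). In P10 libraries 1, 2 and 3 they took 3.85% (3.56 to 4.17), 4.03% (3.65 to 4.45) and 4.95% (4.59 to 5.34). All adult shares were above all P10 shares, with means of 6.74% ± 0.74 and 4.28% ± 0.59 (SD, n = 3). The intervals cover counting error only. The family as a whole did not separate the ages, with 658 to 743 CPM, here without TMM scaling, in adults and 689 to 725 at P10. The log2 ratio of *Syt4* to paralogue integrations was 0.70 higher in adults (-3.80 ± 0.17 against -4.49 ± 0.20, SD, n = 3). The two-sided exact permutation test gave p = 0.1, the smallest that 10 divisions of 6 libraries allow, so this design cannot reach 0.05. *Syt4* was also set against its paralogues with earlier results of these data known.

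That difference was 0.52 without the reporter site, 0.79 over TSS sites alone and 0.78 when each paralogue was weighted equally, with an exact permutation p = 0.1 each time. The same ratio for each paralogue against the rest of the family was lower in all adults than in all P10 libraries for *Syt17* (-0.46), *Syt9* (-0.41) and *Syt11* (-0.21). It overlapped between the ages for *Syt13* (0.39), *Syt1* (0.17), *Syt5* (-0.04), *Syt7* (-0.09) and *Syt10* (-0.32). These ratios are not independent, since a gene that takes a larger share leaves less for the others.

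At the gene starts, *Syt4* was the only one of the family whose TSS site was Up, and 3 of the 9 TSS sites of its paralogues were Down. No paralogue TSS site was Up at an unadjusted p under 0.05 either, by edgeR, DESeq2 or voom. Over all TSS sites, within 1 kb of a gene start, 2.73% were Up and 7.87% Down. The *Syt10* TSS site, chr7:130510086-130510717, held 5.24, 5.84 and 6.45 CPM in adults and 9.34, 12.5 and 8.99 CPM at P10. The groups did not overlap, and it fell by 0.81 on the log2 scale (SE 0.25, adjusted p = 0.0369), a call lost without P10 library 2 (-0.67, adjusted p = 0.232). *Syt17* had 2 TSS sites. The larger, chr1:195048088-195049225, held 15.1, 16.8 and 17.9 CPM in adults and 25.3, 23.6 and 23.0 CPM at P10 and fell by 0.53 (SE 0.19, adjusted p = 0.0773). Its neighbour just inside the gene, chr1:195047453-195047932, held 6.78, 7.79 and 5.03 CPM against 9.95, 9.56 and 9.25 CPM and fell by 0.54 (SE 0.25, adjusted p = 0.191). Neither overlapped between the ages, but the call of the inner site was lost on leaving out any library other than Adult library 5 (-0.58 to -0.40, adjusted p 0.246 to 0.478), and that of the larger site without Adult library 4 (adjusted p = 0.206).

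The remaining 6 TSS sites overlapped between the ages and did not pass. *Syt1* stood at 0.17 (SE 0.15), *Syt5* at 0.15 (SE 0.24), *Syt11* at 0.06 (SE 0.21), *Syt13* at -0.14 (SE 0.19), *Syt9* at -0.18 (SE 0.17) and *Syt7* at -0.23 (SE 0.19), with adjusted p from 0.53 to 0.928. Per kb of site, the level of the *Syt4* TSS was 22.2 ± 4.75 CPM per kb at P10 and 35.7 ± 4.88 in adults (SD, n = 3). At P10 the levels ran from *Syt1* (49.4 ± 6.01), *Syt13* (48.5 ± 6.79) and *Syt11* (42.1 ± 7.03) through *Syt7* (32.1 ± 3.55) and *Syt9* (31.6 ± 2.1) to *Syt4*, number 6 of the 10 sites. Below it lay both *Syt17* sites (21.1 ± 1.04 and 20.0 ± 0.727), *Syt5* (20.3 ± 4.19) and *Syt10* (16.3 ± 3.04). The ranges of neighbours in this order overlapped except between *Syt9* and *Syt4*.

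In adults *Syt4* was number 4, below *Syt1* (55.7 ± 6.51), *Syt13* (43.9 ± 6.78) and *Syt11* (43.6 ± 3.91) and above *Syt9* (27.8 ± 3.78), *Syt7* (27.3 ± 4.75), *Syt5* (22.6 ± 1.87), *Syt17* (14.6 ± 1.25 and 13.6 ± 2.91) and *Syt10* (9.25 ± 0.953). The range of *Syt4* (30.3 to 39.9) was apart from that of *Syt11* (40.0 to 47.8) but overlapped that of *Syt13* (36.3 to 49.4). It also overlapped those of *Syt9* (24.3 to 31.8) and *Syt7* (23.5 to 32.7). Other gaps without overlap between neighbours were from *Syt5* to *Syt17* and from the inner *Syt17* site to *Syt10*.

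**Figure D4:**
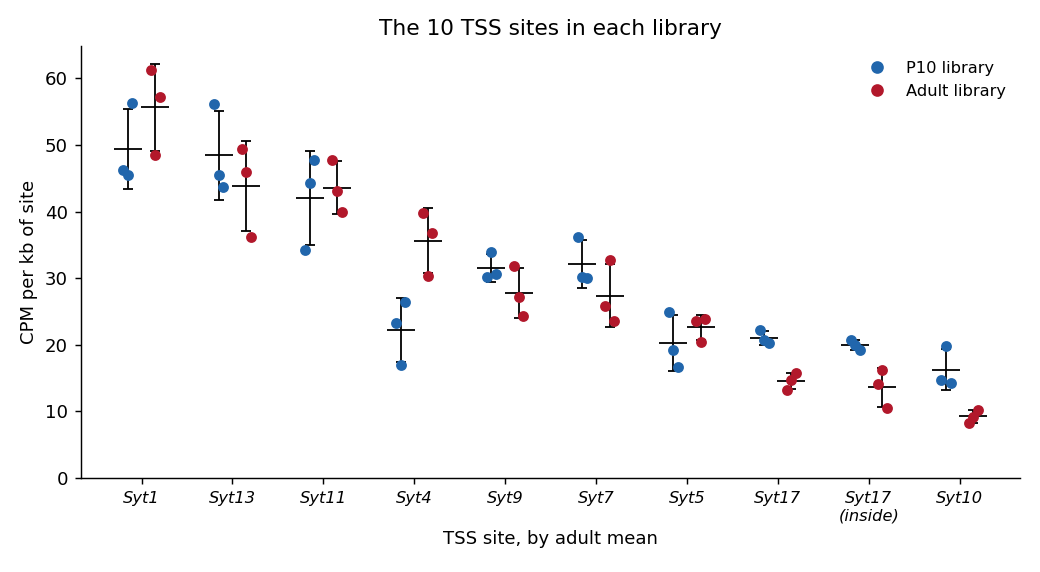
CPM per kb of site (vertical axis) at the 10 TSS-class ACS (horizontal axis, ordered by adult mean), where points are libraries, lines with caps are means ± SD (n = 3). Adult points lie above P10 points at *Syt4* and below them at both *Syt17* sites and *Syt10*.

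Among the paralogues, *Syt13* held the largest rise of the family. At a narrow ACS of 208 bp within the gene, 24757 bp from its start at chr3:88541753-88541960, adults held 17.7, 11.8 and 9.67 CPM and P10 libraries 3.77, 1.07 and 1.90. The groups did not overlap, although P10 library 1 lay above the other P10 libraries. The site rose by 2.50 (SE 0.33, 5.66-fold, adjusted p = 1.18e-05) and stayed called whichever library was left out (2.18 to 3.09). It was not alone: an ACS 33062 bp into the gene rose by 1.20 (SE 0.26, adjusted p = 0.00275). The ACS 109571 bp upstream, which had the highest mean count near *Syt13*, held 41.5, 35.2 and 27.8 CPM in adults and 18.3, 15.2 and 15.9 CPM at P10 and rose by 1.08 (SE 0.19, adjusted p = 0.000333). Both were likewise without overlap between the ages. The other 8 *Syt13* sites, its TSS site among them, had log2 fold changes of -0.46 to 0.50 and did not pass.

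*Syt7* was the only member with called sites in both directions. Its ACS 12394 bp into the gene, chr1:233395060-233395280, held 11.0, 9.84 and 4.25 CPM in adults and 4.69, 2.28 and 1.48 CPM at P10. Adult library 6 lay just below P10 library 1, and the site rose by 1.56 (SE 0.36, adjusted p = 0.00484). A further ACS 34366 bp upstream rose by 1.25 (SE 0.29, adjusted p = 0.00569), with adults at 6.19 to 10.8 CPM and P10 libraries at 2.35 to 4.76. By contrast, the ACS 3777 bp upstream, chr1:233378889-233379397, held 8.68, 7.79 and 6.57 CPM in adults and 16.7, 10.9 and 10.8 CPM at P10. It fell by 0.74 (SE 0.24, adjusted p = 0.0556), and without P10 library 1, the highest, the value was -0.50 (adjusted p = 0.228). The site with the highest mean count, 28199 bp upstream, held 24.5 to 32.3 CPM in adults and 26.1 to 42.3 CPM at P10 (-0.14, SE 0.19, adjusted p = 0.755). Summed over its 9 sites, the log2 fold change of *Syt7* was -0.01.

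*Syt9* had 3 Down sites of 11, all distal. The ACS 89985 bp upstream, chr1:178501113-178501712, held 1.45, 2.63 and 1.55 CPM in adults and 5.39, 5.85 and 3.86 CPM at P10. It fell by 1.41 (SE 0.34, adjusted p = 0.00739), the largest decrease of the family, and stayed called whichever library was left out. At 86514 and 96060 bp into the gene, 2 ACS fell by 0.73 (SE 0.29, adjusted p = 0.118) and 0.71 (SE 0.27, adjusted p = 0.103). All 3 were without overlap between the ages. The ACS at 86514 bp lost its call without Adult library 4 (-0.47, adjusted p = 0.42) and without P10 library 2 or 3 (0.243 and 0.217), and that at 96060 bp without Adult library 6 (-0.51, 0.352) or P10 library 2 (-0.68, 0.269). Its TSS site held 31.6 to 41.3 CPM in adults and 39.2 to 44.1 CPM at P10 and had the highest mean count of the *Syt9* sites.

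*Syt17* was Down at 4 of its 8 sites and Up at none, also at an unadjusted p under 0.05 by edgeR, DESeq2 and voom. Besides its TSS sites, the ACS 51077 bp into the gene, chr1:194997130-194997732, held 12.2, 9.25 and 12.9 CPM in adults and 16.6, 18.3 and 21.3 CPM at P10. It fell by 0.71 (SE 0.21, adjusted p = 0.0317) and stayed called whichever library was left out. The remaining one, downstream at 155023 bp from the gene start, fell by 1.04 (SE 0.39, adjusted p = 0.101) from 2.11 to 3.28 CPM at P10 to 0.904 to 1.95 CPM in adults, a call lost without Adult library 4 (-0.79, adjusted p = 0.317) and without P10 library 1 or 2 (0.21 and 0.299). The other 4 sites of the gene stood at 0.04 to 0.62 and did not pass, so within *Syt17* the called sites and the rest lay on different sides of 0.

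*Syt1* had 21 sites over a gene of 553536 bp and its flanks. It was Up at 4 of 20 distal sites, where 13.8% of all distal ACS were Up. The ACS 203715 bp upstream, chr7:50854284-50854739, held 12.8, 5.26 and 9.28 CPM in adults and 4.97, 5.56 and 4.02 CPM at P10. Adult library 5 lay within the P10 range. The site rose by 0.92 (SE 0.29, adjusted p = 0.0432), and without Adult library 4 the value was 0.57 (adjusted p = 0.333). The others, 45036 bp upstream (0.95, SE 0.34, adjusted p = 0.0802), 147288 bp into the gene (0.64, SE 0.21, adjusted p = 0.0533) and 48742 bp upstream (0.52, SE 0.23, adjusted p = 0.179), also rose. Of these, the site 147288 bp into the gene stayed called whichever library was left out, while that at 45036 bp lost the call without Adult library 4 (0.87, adjusted p = 0.203) or P10 library 1 (0.80, 0.208). That at 48742 bp lost it without Adult library 4 (0.27, adjusted p = 0.607) or 6 (0.55, 0.237) and without P10 library 1 (0.37, 0.408) or 3 (0.51, 0.334). The TSS site, the most accessible of the family by raw count, held 78.9 to 99.6 CPM in adults and 74.1 to 91.6 CPM at P10.

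*Syt10*, apart from its TSS site, had 6 sites that did not pass, from -0.55 to 0.19. The site with its highest mean count, 230892 bp upstream, held 8.38 to 14.4 CPM in adults and 9.62 to 11.8 CPM at P10. None of the 3 *Syt5* sites passed, at -0.04 to 0.15. Its site with the highest mean count, 1426 bp into the gene, held 24.0 to 32.8 CPM in adults and 25.5 to 32.6 CPM at P10. The 2 *Syt11* sites stood at -0.34 and 0.06, and its TSS site held 12.6 to 15.1 CPM in adults and 10.8 to 15.1 CPM at P10. For *Syt4* and its closest paralogue the log2 fold changes were therefore 0.68 (SE 0.21) and 0.06 (SE 0.21) at the TSS, and 0.72 (SE 0.14) and -0.12 (SE 0.16) summed over sites. No test of the difference between the pair was made beyond the ratios above.

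By class, the *Syt4* calls comprised its TSS site, 1 of 2 proximal sites (1 to 10 kb from a gene start) and 2 of 4 distal sites. All 9 Up sites of the paralogues were distal, 9 of 54, while their Down sites were 3 of 9 TSS, 1 of 9 proximal and 5 of 54 distal. Over all ACS, 11.2% of proximal sites were Up and 6.71% Down, and 13.8% of distal sites were Up and 6.45% Down. The *Syt4* reporter site was the only proximal site of the family called Up by edgeR, DESeq2 or voom, and 1 proximal paralogue site, 7807 bp into *Syt13* (0.50, adjusted p = 0.22), passed the unadjusted limit by edgeR and voom. Sites of 1 gene share a locus and are not replicates, and these shares were not tested. Median log2 fold changes were -0.18 for paralogue TSS sites, against -0.10 for all TSS sites, and -0.01 for paralogue distal sites, against 0.02 for all distal sites.

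By distance, 8 of the 40 member sites at 10 to 100 kb were Up and 4 Down, and of the 18 beyond 100 kb, 3 were Up and 1 was Down. Over all ACS, 13.9% were Up and 6.69% Down at 10 to 100 kb, and 13.6% and 6.21% beyond 100 kb, so the member shares beyond 100 kb (16.7% and 5.56%) lay near the background. All *Syt4* sites lay within 100 kb, whereas all 18 beyond it belonged to paralogues. Upstream of the gene starts, 7 of 27 member sites were Up and 2 Down. Within genes, 4 of 39 were Up and 4 Down, 10.3% each. Over all ACS, 12.3% of upstream sites were Up and 6.61% Down, and 16.0% of sites within genes were Up and 6.70% Down. The 13 Up sites had a median log2 fold change of 1.08 and a median width of 356 bp, and the 9 Down sites had -0.73 and 600 bp. In 23 of the 79 sites (29.1%) the ages did not overlap, 12 higher and 11 lower in adults, where 24.7% of all ACS did not overlap. Of the called sites, 10 of 13 Up and 9 of 9 Down were among them. Call and overlap rest on the same 6 libraries, so these counts are not separate support for the calls.

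**Figure D5:**
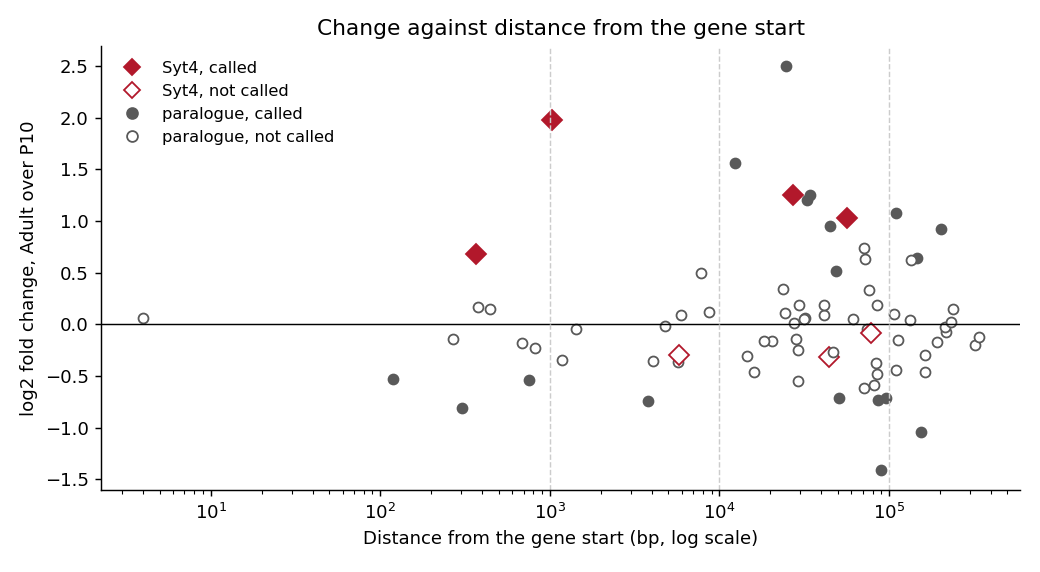
Log2 fold change (Adult over P10, vertical axis) of the 79 ACS against the distance from the gene start (bp, log scale, horizontal axis), with dashed lines at 1, 10 and 100 kb and filled symbols for called sites. Within 10 kb, the Up sites are the *Syt4* TSS and reporter sites (0.68 and 1.98), and the called paralogue sites lie below 0.

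In 7 further synaptotagmins outside the rule, 5 had sites. Of their 23 sites 5 were Up and 1 Down (21.7% and 4.35%, against 12.3% and 6.63% of all ACS), with a median log2 fold change of -0.09, against -0.01 for all ACS. *Syt2*, a fast calcium sensor close to *Syt1*, had 2 of 3 sites Up, and its sum rose by 0.81 (SE 0.17, adjusted p = 0.00934). *Syt6* had 3 of 8 sites Up and 1 Down, and its sum stood at 0.21 (SE 0.11, adjusted p = 0.27). So *Syt4* was not the only synaptotagmin whose sum rose with an FDR under 0.05.

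The machinery on which synaptotagmins act includes the SNARE proteins that drive fusion, their chaperones and priming factors, Rab effectors and calcium channels. Of 31 such genes 28 had ACS, and of their 220 sites 30 were Up (13.6%) and 10 Down (4.55%), close to the 12.3% and 6.63% of all ACS, with a median log2 fold change of 0.04. Of the 28 gene sums 3 were Up and 2 Down, where 10.5% and 7.69% of all genes were. Those of *Cacna1a*, the channel of P/Q-type calcium currents (0.47, SE 0.13, adjusted p = 0.0349), *Cadps*, a granule priming factor (0.39, SE 0.13, adjusted p = 0.0799), and *Rph3a*, a Rab3 effector (0.65, SE 0.24, adjusted p = 0.118), rose. Those of *Snap25*, a SNARE of the plasma membrane (-0.47, SE 0.11, adjusted p = 0.0228), and *Doc2a*, a C2-domain protein (-0.99, SE 0.42, adjusted p = 0.178), fell. At *Rph3a* only 1 of 4 sites was Up, and the median log2 fold change of its sites was 0.08. The *Rph3a* TSS site stood at -0.68 (SE 0.36, adjusted p = 0.284), did not pass, and had all adults below all P10 libraries. Of the 28 TSS sites of the list, none was Up by edgeR, DESeq2 or voom (0 also at an unadjusted p under 0.05) and 2 were Down by edgeR, where 2.73% and 7.87% of all TSS sites were. The called *Snap25* site held 5.55 ± 1.35 CPM in adults and 8.51 ± 0.931 at P10 (-0.60, SE 0.26, adjusted p = 0.167, SD over n = 3). The other *Snap25* TSS site held 11.5 ± 0.769 and 13.1 ± 0.738 CPM and did not pass (-0.19, SE 0.21, adjusted p = 0.685). The *Doc2a* site, which is its only ACS, held 1.23 ± 0.637 and 2.47 ± 0.655 CPM (-0.99, SE 0.42, adjusted p = 0.154). The ages overlapped at the *Doc2a* site. *Snap25* is also among the neuronal markers above.

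The genes whose summed log2 CPM followed that of *Syt4* most closely over the 6 libraries were *Prmt6* (r = 0.998), *Bcl6* (0.997), *Zcchc2* (0.996), *Col5a2* (0.996) and *Irf4* (0.995), among 12350 genes with a mean summed count of at least 100. As a description only, since 6 libraries of 2 ages make high values common, 725 genes had r above 0.9. Within the family, r with *Syt4* was 0.832 for *Syt1* and 0.603 for *Syt13*, and -0.837 and -0.835 for *Syt9* and *Syt17*.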

How the data were processed

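ATAC-seq was analysed in 3 Adult and 3 P10 libraries, grouped by the sample titles. The authors aligned reads to Rn5 with BWA 0.7.13, removed mitochondrial and low-quality reads, called peaks with MACS2 2.1.1 on the joined libraries of each age, and deposited raw counts of integrations at each ACS for each library. Removal of PCR duplicates is not given in the sources used here, and it would bear on the counting error. The table also holds the authors' own fold changes, p-values and FDR, which were not used. Its 338 repeated entries were dropped for the fits of single ACS, leaving 101603 ACS.

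All ACS, unfiltered, were fitted with age as the only term (edgeR 4.0.16 quasi-likelihood, TMM, R 4.3.3), and so were counts summed by nearest gene. The sums kept the repeated entries, each under its listed gene, and left out 6899 entries without a gene symbol. No member ACS was among the repeats. CPM are scaled by TMM. SE is the absolute log2 fold change divided by the square root of F. Alternatives were DESeq2 1.42.0, limma 3.58.1 (voom, and trend after cyclic loess), other scalings, filterByExpr, a stricter FDR of 0.05 and omission of each library in turn.

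The planned ratio named 9 paralogues, of which 8 had ACS. Sites named were all of *Syt4*, all TSS sites and, for each paralogue, the called site with the smallest p in each direction and the site with the highest mean count. The other called sites and members were named after their values were seen. Members and lists were chosen with earlier results of these data known. Adult libraries came from separate rats and P10 libraries from separate litters.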

Additional observations from a re-analysis of the deposited data

How the results depend on the processing

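No paired analysis was possible because adults and pups were different animals, and no link between a rat and a litter is given. With an FDR under 0.05 the Down sites went from 9 to 3 among all members and among the paralogues, and the gene sums from 2 Up and 2 Down to 1 and 0. Cyclic loess left 1 gene sum Up. Leaving out 1 library gave 9 to 15 Up and 4 to 11 Down sites over all members, 3 to 4 Up sites for *Syt4*, 6 to 11 Up and 4 to 11 Down sites for the paralogues, 1 to 2 gene sums Up and 0 to 3 Down, and a *Syt4* ratio difference of 0.62 to 0.81. Gene sums Up were 1 without Adult library 4 and without P10 library 2 or 3. Gene sums Down were 0 without Adult library 4 or P10 library 2 and 1 without P10 library 3. Down sites were 4, all of paralogues, without P10 library 2, where Down calls over all ACS went from 6738 to 3285. All other counts stayed within 1.5 times of those reported, and the *Syt4* sites called Down were 0 under every alternative. The cause was not tested.

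Column sums as library sizes shifted the median of all ACS to -0.10 and the split of all calls from 12504 Up and 6738 Down to 10447 and 10732. Cyclic loess gave 11068 and 9101. Members then had 12 Up and 11 Down, or 13 and 10, and the 4 *Syt4* calls were made under both.

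Among 35 named sites and gene sums and 13 alternatives, 407 of 455 values kept direction and call, 27 lost a call, 2 gained one and 19 changed sign, all 19 in values that were not called. The called sites named after their values were seen are not among the 35. Calls of theirs lost on leaving out 1 library are given above with each site. The *Syt5* sum changed sign with column sums (-0.06) and ranged from -0.04 to 0.09 on leaving out 1 library, and the *Syt7* sum from -0.09 to 0.12. The *Syt10* site 230892 bp upstream changed sign with voom (-0.01), column sums (-0.07) and cyclic loess (-0.14) and ranged from -0.19 to 0.20. The *Syt11* TSS site changed with column sums (-0.04) and cyclic loess (-0.07) and ranged from -0.09 to 0.15. Ranges also crossed 0 for the *Syt4* sites 44592 bp (-0.62 to 0.16) and 78110 bp upstream (-0.28 to 0.03), the *Syt5* site 1426 bp into the gene (-0.17 to 0.06) and the *Syt7* site 28199 bp upstream (-0.28 to 0.12). The *Syt10* sum passed without Adult library 6 (-0.43) and without P10 library 1 (-0.36).

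P10 libraries were deeper than adult ones, and the depth limits sites such as the *Syt4* ACS 44592 bp upstream, whose counts were 3 to 26.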
